A study of Mus musculus with 6 samples.

Results

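The genes described here encode the machinery that copies DNA in S phase. The list held 45 genes in 4 groups, which covered the licensing factors and the helicase, the polymerases and other fork proteins, the enzymes of nucleotide supply, and the proteins that carry chromatin through replication. A gene was measured by the probe sets that name it and no other gene, and by the brightest of these (the highest mean over all arrays) where there were several. On this rule 44 of the 45 genes were measured, of 18193 genes that the array measured in the same way, and all 44 passed the filter on low values that 15346 genes passed. The exception, Chaf1a, was not analysed here.

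The values came from 6 Affymetrix mouse genome arrays of retinal ganglion cells (RGCs), the neurons that send axons from the eye to the brain, from C57BL/6J mouse embryos at E16.5 (the sample labels round this to embryonic day 16). Rhodamine dextran was placed on 1 cut optic tract, and after 2 hours of transport the labeled cells of the retina on the same side (ipsilateral RGCs) and on the opposite side (contralateral RGCs) were sorted by FACS, with DAPI used to leave out dead cells. There were 3 rounds of labeling and sorting, each with the pooled embryos of 2 litters, and each gave 1 ipsilateral and 1 contralateral array, so a difference within a round compares cells treated together. The rounds were picked by the study for high Zic2 in the ipsilateral cells, fewer ipsilateral than contralateral cells were sorted, and the same amount of RNA from both was amplified as cDNA. All values below are log2 intensities, in which a difference of 1 is 2-fold, and differences are ipsilateral minus contralateral.

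Replication begins when the origin recognition complex (ORC), Cdc6 and Cdt1 load the ring of Mcm2 to Mcm7 onto DNA in G1, a step that geminin (Gmnn) later blocks so that no origin fires again. Cdc45 and the GINS complex turn the loaded ring into an active helicase, after which polymerase alpha with primase starts each strand and polymerases delta and epsilon extend it with the sliding clamp PCNA. Most of these genes are switched on by E2F transcription factors as a cell enters S phase. RGCs are postmitotic neurons, and in the embryonic retina dividing progenitors carry out DNA replication.

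The labels were checked against markers of other cells. On every array the mean of 19 RGC markers was high, between 11.29 and 11.80 in contralateral and between 10.98 and 11.47 in ipsilateral samples. Within rounds these markers were a little lower on the ipsilateral side, 18 of 19 of them in all 3 rounds (20.2% of all genes), with a median difference of -0.36. For 7 of them all contralateral arrays lay above all ipsilateral arrays (304 of 15346 genes), and 0 were called by limma (0% of all genes were called lower). Markers of retinal progenitors (19 genes, which include Sox2, Lhx2 and Ccnd1) averaged 7.96 to 8.03 in the contralateral arrays and 9.02 to 9.95 in the ipsilateral arrays. The list was uneven. Of the 19, 13 were 2-fold or more higher (2.75% of all genes), while Six3, Pax6 and Hes1 differed by 0.02, 0.03 and 0.10. Markers of microglia and macrophages (19 genes) averaged 4.64 to 5.68 in the contralateral and 8.03 to 8.80 in the ipsilateral arrays. Of the microglial markers, 7 (C1qb, C1qc, Csf1r, Aif1, Ly86, Itgam and Ptprc) had a contralateral mean below the filter level of 4.74. Markers of endothelial cells and pericytes had a median difference of -0.00 over 15 genes, 6 of them below the filter level on both sides. In bulk samples such as these, fewer cells of a type and less RNA per cell cannot be told apart. Immediate early genes, which many cells switch on when tissue is handled, had a median difference of 0.96. Of these 20, 16 were higher in all 3 rounds (17.6% of all genes) and 11 had ipsilateral arrays above all contralateral arrays (3.84%). Limma called 2 higher (0.358% of all genes), or 4 with the round as a block (0.319%). The RGC, progenitor, microglial and immediate early lists thus all moved with the side, and their part in the results below was not tested. Sox2, Lhx2, C1qb, Csf1r, Fos, Egr1 and many other progenitor, microglial and immediate early markers are in the study's list of genes differing by side. That list was chosen on these same samples, so their movement is no independent evidence.

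No replication gene passed the test, although most were brighter in the ipsilateral samples. The mean over 3 rounds was higher in ipsilateral RGCs for 42 of the 44 genes and lower for 2, Tyms and Hells. With arrays centered on their medians 5 were lower (also Orc1, Prim2 and Rfc1), and with quantile normalization 3 (also Prim2). With limma, 0 of the 44 were called higher and 0 lower at 2-fold and an adjusted p under 0.05, where 0.358% of all genes were called higher and 0% lower. The count stayed at 0 where the round was a block (0.319% of all genes). At an unadjusted p under 0.05 and 2-fold, 16 genes were higher without the block (2.47% of all genes) and 17 with it (2.65%). In each of the 3 rounds separately, 30 of the 44 were higher in the ipsilateral sample, against 17.6% of all genes, and 0 were lower in each round, against 20.2%. All 3 ipsilateral arrays lay above all 3 contralateral arrays for 20 genes, against 3.84% of all genes, and 18 differed by 2-fold or more, against 2.75%. The median difference of the 44 was 0.84, beside -0.01 over all genes.

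A part of the list is not independent evidence of a direction. The study placed 12 of the members in a list of its own, chosen on these same samples at 2-fold and a corrected p of 0.05. These were Mcm2, Mcm3, Mcm4, Mcm5, Mcm6, Gins2, Gmnn, Pcna, Rpa2, Rrm2, Tyms and Uhrf1, and their median difference was 1.53. The study tested in GeneSpring, whereas limma called 0 of the 12 here, and the reason was not tested. Tyms entered the study's list through a probe set that also names its pseudogene, and another set is counted here. The other 32 had a median of 0.45, and since the split was made on these same arrays they are no independent evidence either. Of these 32, 19 were higher in all 3 rounds (17.6% of all genes), and 9 had ipsilateral arrays that all lay above the contralateral arrays (3.84%). In the same 32, 7 were 2-fold or more higher (2.75%), and 5 reached 2-fold with an unadjusted p under 0.05 (2.47%).

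**Figure D1:**
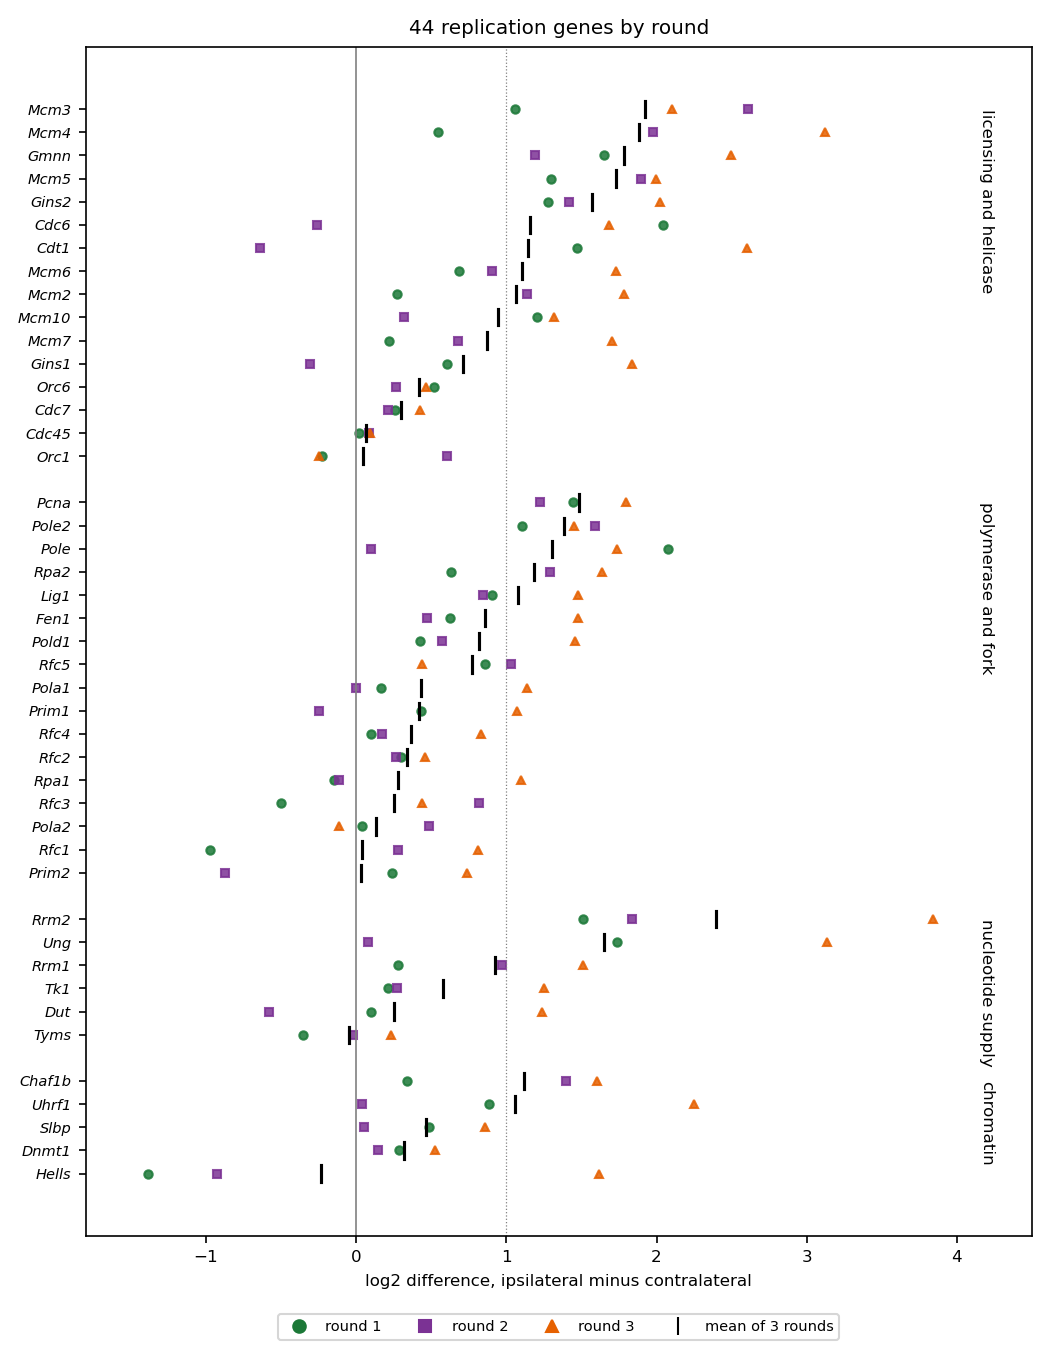
Log2 difference (ipsilateral minus contralateral, x axis) of each of the 44 measured replication genes (y axis, by group) in round 1 (circles), round 2 (squares) and round 3 (triangles), with the mean of the 3 rounds as a black tick. The solid line marks no difference and the dotted line 2-fold, and the mean lies left of the solid line for Tyms and Hells alone.

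The promoters of the genes were searched for letters that E2F factors are known to bind. RefSeq promoters on GRCm38.p6, each running from 250 bases before to 50 bases after the start of the gene, were matched for 38 of the 45 genes. The motifs were TTTCCCGC, TTTGGCGC, TTTCGCGC and TTTGCCGC on either strand, of which TTTCGCGC can overlap the reverse complement of TTTGGCGC. At least 1 of them was present in 15 of the 38 promoters (39.5%), against 4.17% of the 12242 genes tested on the array that had a promoter in the table and 2.60% of all 27025 genes in it. It was present for 7 of 12 helicase genes, 5 of 14 polymerase genes, 0 of 6 nucleotide genes and 3 of 6 chromatin genes. The CCAAT box, searched on both strands, was present in 22 of 38 (57.9%), against 41.9% of the tested genes. Windows from 7 promoters are shown, all ending before the start of the gene. They set genes of the ring (Mcm5, Mcm6, Mcm7) and 2 genes outside it with a mean difference above 1 (Cdc6, Uhrf1) beside Orc1. Orc1 also held 1 of the E2F motifs, and its brightest probe set hardly differed (0.04), although its other set gave 0.49. The last window is that of Rrm2, the gene with the largest difference of all, whose promoter held none of the E2F motifs. The windows are written 5′ to 3′ on the strand of the gene, and capitals mark the E2F motifs on either strand or, in Rrm2, the CCAAT box.
Mcm5, chr8:75109329-75109388, plus strand: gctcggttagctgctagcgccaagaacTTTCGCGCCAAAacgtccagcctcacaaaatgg
Mcm6, chr1:128359736-128359825, minus strand: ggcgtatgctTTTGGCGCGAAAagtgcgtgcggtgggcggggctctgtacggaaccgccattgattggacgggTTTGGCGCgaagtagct
Mcm7, chr5:138172014-138172073, minus strand: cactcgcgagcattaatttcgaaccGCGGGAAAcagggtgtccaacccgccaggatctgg
Cdc6, chr11:98907981-98908040, plus strand: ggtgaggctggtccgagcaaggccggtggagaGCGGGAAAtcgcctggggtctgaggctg
Orc1, chr4:108579394-108579453, plus strand: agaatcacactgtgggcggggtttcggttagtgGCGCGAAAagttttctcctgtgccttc
Uhrf1, chr17:56304103-56304162, plus strand: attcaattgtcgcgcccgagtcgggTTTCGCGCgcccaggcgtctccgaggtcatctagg
Rrm2, chr12:24708104-24708253, plus strand: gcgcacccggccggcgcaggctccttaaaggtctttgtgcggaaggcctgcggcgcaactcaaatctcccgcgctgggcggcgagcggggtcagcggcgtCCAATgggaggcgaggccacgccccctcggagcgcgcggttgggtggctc

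In Mcm6 the motif occurs as an overlapping pair and once more nearer the start, and in Mcm5 as an overlapping pair. The matches of Mcm3 lie past the start of the gene and are not shown. Hells, Rfc3, Dnmt1 and Pola1 also held an E2F motif before the start and are not shown. Like Orc1 they differed by less than 2-fold, by -0.23, 0.25, 0.32 and 0.43. Over the measured genes with a promoter, the median log2 difference was 1.06 for the 15 with an E2F motif and 0.52 for the 22 without. The order turned when only the 250 bases before the start were read, with a median of 0.65 for 10 genes with the motif and 0.82 for 27 without. A match to these letters is a description and not evidence of binding.

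In the licensing and helicase group all 16 genes had a higher ipsilateral mean (15 with centered arrays, where Orc1 was lower), and 12 were higher in all 3 rounds (17.6% of all genes). The group had the largest median of the 4, 1.09, with 9 genes at 2-fold or more (2.75% of all genes). At 2-fold with an unadjusted p under 0.05 there were 7 (2.47%). The 9 include Mcm2 to Mcm6, Gins2 and Gmnn, which are in the study's list, chosen on these same samples. Mcm3, a subunit of the helicase ring, had values of 7.83, 9.25 and 9.29 in the ipsilateral arrays of rounds 1 to 3 and of 6.78, 6.65 and 7.19 in the contralateral arrays. Its ipsilateral arrays all lay above its contralateral arrays, and the lowest was that of round 1. The difference was 1.92 (3.79-fold, SE 0.46, 95% interval 0.93 to 2.92), with a limma adjusted p of 0.204, or 0.112 with the round as a block. Mcm4, another subunit, measured 7.94, 9.41 and 10.17 in the ipsilateral and 7.39, 7.43 and 7.05 in the contralateral arrays. Here the contralateral values were close together, while the ipsilateral values spread from near them to far above. The difference was 1.88 (SE 0.52, 95% interval 0.77 to 3.0, limma adjusted p 0.394). Without ipsilateral array 1, limma called both genes, with an adjusted p of 0.00735 for Mcm3 and 0.00612 for Mcm4.

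The other 4 subunits of the ring were also higher in all 3 rounds. Mcm5 measured 8.42, 8.73 and 10.01 against 7.13, 6.84 and 8.01, 1.73 apart in the mean (SE 0.50), for which limma gave an adjusted p of 0.455 and, with the block, of 0.0633. It varied least between rounds of the ring's members, with 1.30, 1.89 and 2.00 in rounds 1 to 3. For Mcm6 the values were 9.96, 10.44 and 11.51 against 9.27, 9.53 and 9.78, and for Mcm2 they were 6.81, 7.87 and 8.29 against 6.53, 6.73 and 6.51. Their differences were 1.11 (95% interval 0.13 to 2.09) and 1.07 (0.11 to 2.02). Mcm7 measured 9.77, 9.81 and 11.32 against 9.55, 9.13 and 9.61, and its interval, -0.15 to 1.88 around 0.87, reached below 0 in the fit without the block. With the round as a block the SE of Mcm7 was 0.30 in place of 0.47, the limma p before adjustment 0.0308 and the adjusted p 0.304. All 6 subunits had ipsilateral arrays that all lay above the contralateral arrays (3.84% of all genes). Of the 6, all but Mcm7 are in the study's list, which was chosen on these same samples. The median of the 6 differences was 0.61, 1.52 and 1.89 in rounds 1, 2 and 3.

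The factors that load and release the ring were less even. Gmnn, the inhibitor of loading, measured 8.20, 7.08 and 8.93 in the ipsilateral arrays and 6.55, 5.89 and 6.43 in the contralateral arrays. Its groups did not overlap and its round 2 values were the lowest on both sides. The difference was 1.78 (3.44-fold, SE 0.49, limma adjusted p 0.372), and without ipsilateral array 2 limma called it with an adjusted p of 0.0284. Some other factors were described after their values were seen, namely Cdc6, Cdt1, Gins2, Cdc45 and Orc1. Cdc6, a loading factor, measured 5.79, 4.69 and 7.15 against 3.75, 4.95 and 5.47, and its partner Cdt1 measured 6.98, 6.32 and 9.19 against 5.51, 6.97 and 6.58. Both were higher in rounds 1 and 3 and lower in round 2, by 0.26 and 0.64, and the contralateral mean of Cdc6, 4.73, was the only group mean of a member below the filter level. Gins2, a subunit of GINS, was higher by 1.28, 1.42 and 2.03 in rounds 1 to 3 (mean 1.57, SE 0.48, limma adjusted p 0.584, or 0.0740 with the block). Limma called Gins2 without ipsilateral array 1 (adjusted p 0.0479). Cdc45, which joins GINS at the active helicase, differed by 0.02, 0.08 and 0.10. Its mean difference was 0.07 (95% interval -0.80 to 0.93 without the block), with an SE of 0.40, or 0.14 with the block. Orc1, the largest subunit of ORC, measured 7.06, 7.24 and 6.43 against 7.28, 6.64 and 6.68, with ipsilateral and contralateral arrays interleaved (difference 0.04, 95% interval -0.84 to 0.93). The other probe set of Orc1 was higher in all 3 rounds, with a mean difference of 0.49.

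**Figure D2:**
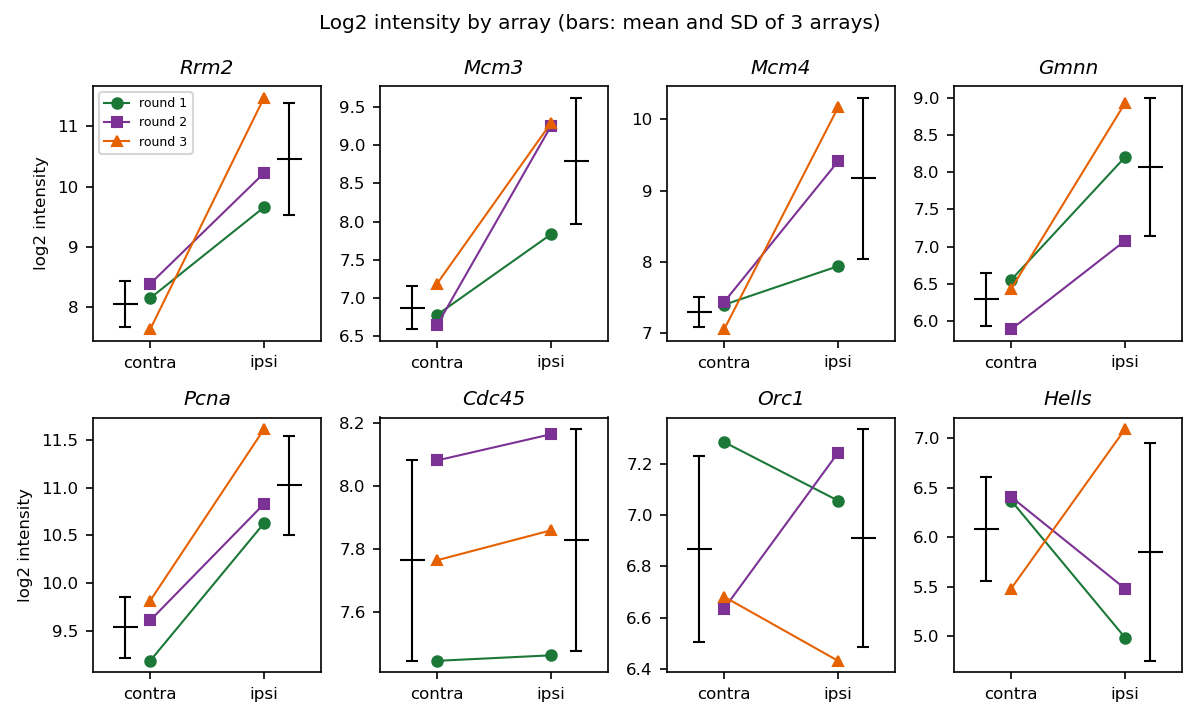
Log2 intensity (y axis, a separate range in each panel) of 8 replication genes on the contralateral and ipsilateral array of each round, joined by round, with the mean and SD of 3 arrays beside each side. In Rrm2, Mcm3, Mcm4, Gmnn and Pcna every ipsilateral array lies above every contralateral array, whereas in Cdc45, Orc1 and Hells the sides overlap.

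In the polymerase and fork group all 17 genes had a higher ipsilateral mean (Prim2 and Rfc1 turned with centered arrays, and Prim2 with quantile normalization). Of the 17, 10 were higher in all 3 rounds (17.6% of all genes). The median difference, 0.43, was hardly below that of the chromatin group, 0.47. With single arrays left out it ranged from 0.29 without contralateral array 1 to 1.01 without ipsilateral array 1, and the chromatin median was the smaller of the pair in 5 of the 6 cases. Pcna, the sliding clamp, measured 10.63, 10.83 and 11.61 in the ipsilateral arrays and 9.19, 9.61 and 9.82 in the contralateral arrays. It had no overlap and much the same difference in every round (1.44, 1.22 and 1.80). The mean difference was 1.49 (2.80-fold, SE 0.42, 95% interval 0.58 to 2.39), with a limma adjusted p of 0.429, or 0.0675 with the block. Pole2 and Pole, subunits of the leading strand polymerase epsilon, differed in their evenness. Pole2 measured 5.94, 7.23 and 7.03 against 4.83, 5.64 and 5.58 (difference 1.38, SE 0.45, limma adjusted p 0.752, or 0.0706 with the block). Pole, the catalytic subunit, measured 7.23, 5.97 and 7.10 against 5.15, 5.87 and 5.36, so that its round 2 pair differed by 0.10 and the others by 2.08 and 1.74. Rpa2, part of the complex that coats single-stranded DNA, measured 7.67, 8.66 and 9.31 against 7.04, 7.38 and 7.67 (difference 1.18, SE 0.46, limma adjusted p 1.0).

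In replication factor C and in polymerase alpha with primase no gene reached 2-fold in the mean of its brightest probe set. Single rounds differed by more. The 5 subunits of replication factor C, the loader of the clamp, had a median difference of 0.34 and ranged from 0.04 (Rfc1) to 0.77 (Rfc5). None had arrays without overlap, the difference of Rfc1 was -0.97 in round 1 and 0.81 in round 3, and a second probe set of Rfc4 gave 1.02. Polymerase alpha with primase (Pola1, Pola2, Prim1 and Prim2) had a median of 0.28 and ranged from 0.03 to 0.43, with 0 of the 4 higher in all 3 rounds. Round medians of these 4 were 0.20, -0.12 and 0.90. Rpa1, the large subunit of the complex that holds Rpa2 and described here after its values were seen, measured 7.58, 8.61 and 9.42 against 7.73, 8.72 and 8.32, lower in rounds 1 and 2 and higher in round 3. The difference between the Mcm ring and replication factor C or polymerase alpha with primase was not tested.

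The nucleotide group held the largest difference of the list and one of the 2 below 0. Rrm2, the regulated subunit of ribonucleotide reductase, which makes the deoxynucleotides for DNA synthesis, measured 9.66, 10.22 and 11.48 in the ipsilateral arrays and 8.15, 8.39 and 7.64 in the contralateral arrays. Its sides were far apart, and round 3 held both the highest ipsilateral and the lowest contralateral value. The difference was 2.39 (5.26-fold, SE 0.49, 95% interval 1.35 to 3.44), with a limma adjusted p of 0.0794, or 0.154 with the block. Limma called Rrm2 without contralateral array 2 (adjusted p 0.0335), without ipsilateral array 1 (0.00358) and without ipsilateral array 2 (0.0214), and over all arrays left out in turn the adjusted p ranged from 0.00358 to 0.459. Rrm1, the large subunit, measured 9.09, 9.62 and 10.57 against 8.81, 8.65 and 9.06, with a difference of 0.92 and no overlap. Ung, which removes uracil from DNA, measured 8.82, 8.08 and 10.90 against 7.09, 8.01 and 7.77. Its difference of 1.65 (SE 0.61, limma adjusted p 1.0) rested on rounds 1 and 3, since round 2 differed by 0.08. Tk1, the thymidine kinase, differed by 0.21, 0.27 and 1.25.

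Tyms, the enzyme that makes thymidylate, depended on the probe set. Of 4 sets that name Tyms alone, 2 passed the filter, and the brighter of these measured 5.48, 6.92 and 7.05 in the ipsilateral and 5.83, 6.94 and 6.81 in the contralateral arrays, a difference of -0.05 (95% interval -1.12 to 1.03). The other set that passed had the opposite sign, with a difference of 0.20. A still brighter set names both Tyms and its pseudogene Tyms-ps and was therefore not counted. That set measured 8.64, 8.37 and 9.60 against 6.95, 7.28 and 7.58, with no overlap and a difference of 1.60 (SE 0.44, limma adjusted p 0.372). The level of Tyms is therefore uncertain here.

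Of the 5 chromatin genes measured, 4 were higher in all 3 rounds (17.6% of all genes). Chaf1b, a subunit of the assembly factor that places new histones behind the fork, measured 6.82, 7.87 and 7.82 against 6.48, 6.48 and 6.22, with no overlap and a difference of 1.11 (SE 0.42, 95% interval 0.21 to 2.02, limma adjusted p 1.0). A second probe set of Chaf1b that passed the filter was lower in all 3 rounds, with a difference of -0.26, so the direction depended on the set. Uhrf1, which brings the maintenance methyltransferase to new DNA, measured 8.35, 7.71 and 9.70 against 7.47, 7.67 and 7.45. Its ipsilateral arrays lay above the contralateral arrays, but by a margin of 0.04 in round 2. Dnmt1, that methyltransferase, differed by 0.28, 0.15 and 0.52, and Slbp, which binds histone mRNA, by 0.49, 0.06 and 0.86. Hells, a chromatin remodeler, was the one gene of the group with a lower ipsilateral mean. It measured 4.98, 5.48 and 7.09 against 6.37, 6.41 and 5.48, lower in rounds 1 and 2 and higher by 1.61 in round 3 (difference -0.23, 95% interval -1.38 to 0.91), and its other probe sets gave 0.93 and 0.88.

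Probe sets other than the brightest gave a further reading of 33 genes. Of 48 such sets that passed the filter, 40 had the same sign as the brightest set of their gene, 12 were 2-fold or more higher and 0 were called, with or without the block. In 26 of the 33 genes every set that passed had a difference above 0. Size agreed less well than sign, and the widest range was that of Mcm3, whose 5 sets ran from 0.72 to 2.61. Its most different set reached a limma adjusted p of 0.0505. For Mcm5 the sets ran from 0.22 to 1.93, and for Rrm2 from 1.11 to 2.39. The 2 sets of Chaf1b, at -0.26 and 1.11, had opposite signs. In 8 of the 44 genes the brightest set is one whose name ends in _x_at, a mark of Affymetrix for sets with probes that can match other transcripts, and these include Rrm2, Mcm4, Mcm5 and Mcm6.

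**Figure D3:**
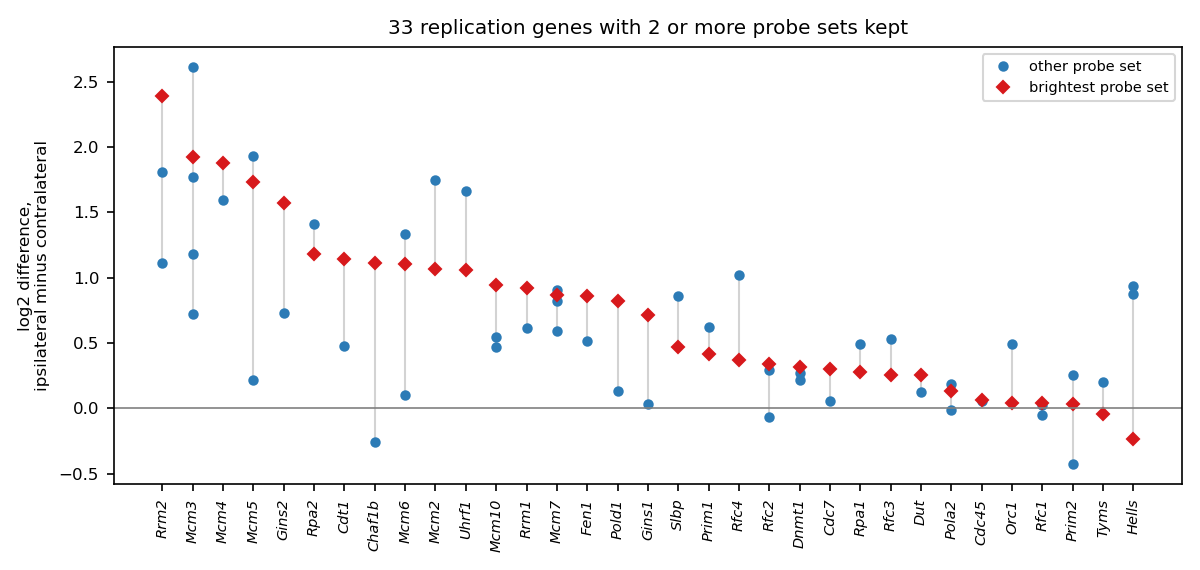
Log2 difference (ipsilateral minus contralateral, y axis) of every probe set that passed the filter, for the 33 replication genes with 2 or more such sets (x axis), with the brightest set as a diamond and the others as circles. Mcm3 spans 0.72 to 2.61, and the brightest set of Hells lies below 0 while its other sets lie above.

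The rounds did not contribute equally. Median differences of the 44 genes were 0.46, 0.30 and 1.47 in rounds 1, 2 and 3, and 12, 12 and 30 genes were 2-fold or more higher. Round 3 held the largest difference of the 3 for 35 of the 44 genes, whereas 29.1% of all genes had their largest difference there. In the ipsilateral arrays 36 of the 44 genes were brightest in round 3, while in the contralateral arrays 21 were brightest in round 2 and 18 in round 3. These 3 counts rank uncentered values, and no share over all genes is given for them. The ipsilateral and contralateral array medians were 5.81 and 5.80 in round 1, 6.70 and 6.65 in round 2, and 6.33 and 6.26 in round 3. With a round left out, 32 genes were higher in both other rounds without round 1, 37 without round 2 and 31 without round 3, against 26.9%, 28.4% and 27.7% of all genes. The median difference was 0.46 without both arrays of round 3 and 0.41 without ipsilateral array 3 alone. By group, leaving out ipsilateral array 3 gave medians of 0.59 for the helicase, 0.30 for the polymerase, 0.42 for the nucleotide and 0.21 for the chromatin genes.

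The arrays of 1 side also differed more among themselves. The SD over the 3 ipsilateral arrays exceeded that over the 3 contralateral arrays for 40 of 44 genes (90.9%), and for 52.6% of all genes. The median SD was 0.76 in ipsilateral and 0.37 in contralateral samples, where over all genes it was 0.50 and 0.48. The median difference of the progenitor markers was also largest in round 3 (1.23, 1.63 and 2.53 in rounds 1 to 3). So was that of 42 genes of G2 and M phase (0.95, 0.79 and 1.95). For microglial markers the median difference was largest in round 1 (4.35, 3.43 and 2.60). Their mean level was 8.09, 8.80 and 8.03 in the ipsilateral arrays of rounds 1 to 3, highest in round 2. In the contralateral arrays it was 4.64, 5.68 and 5.58, lowest in round 1. The part of either cell type in the spread was not tested.

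**Figure D4:**
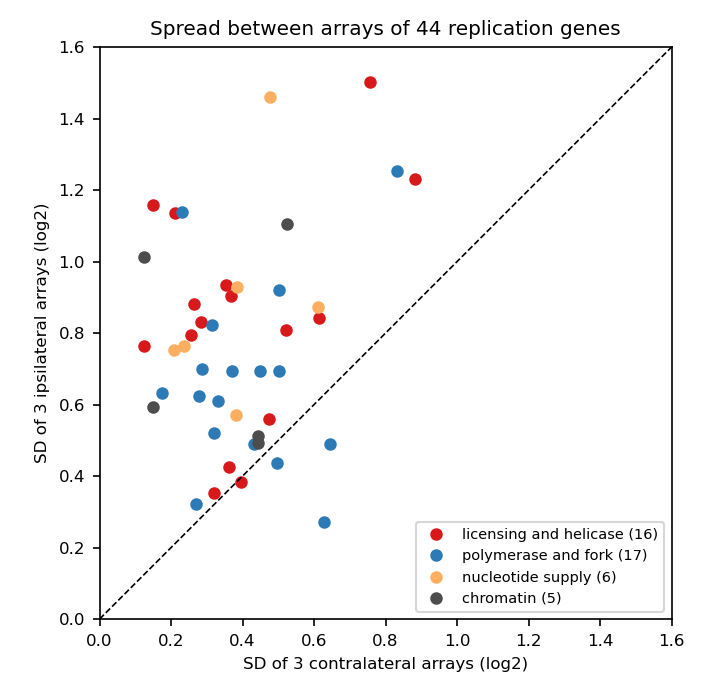
SD of log2 intensity over the 3 ipsilateral arrays (y axis) against that over the 3 contralateral arrays (x axis), 1 point for each of the 44 replication genes, colored by group. Points above the dashed line of equal SD, 40 of 44, varied more between ipsilateral arrays.

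**Figure D5:**
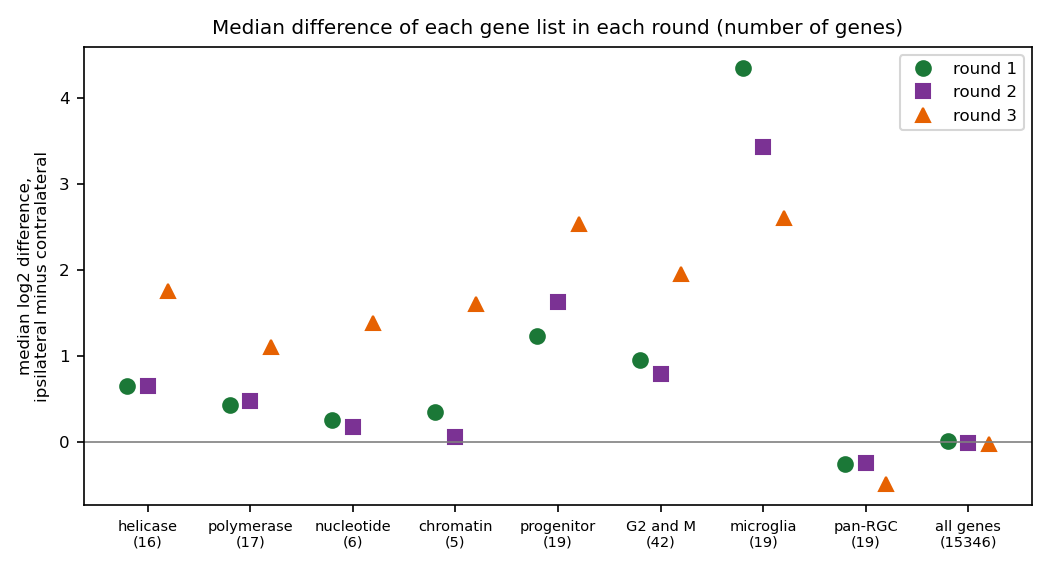
Median log2 difference (ipsilateral minus contralateral, y axis) in each round for the 4 groups of replication genes and for lists of markers, with the number of genes in parentheses. Round 3 is the highest for the replication groups, the progenitor list and the G2 and M phase list, round 1 is the highest for the microglia list, and all genes lie near 0.

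Further genes of replication were counted on a second list, of which 42 of 43 were measured. It covers other initiation factors, checkpoint mediators and fork proteins. None was called by limma (0.358% of all genes were called higher), and 3 were higher at 2-fold and an unadjusted p under 0.05 (2.47%). In all 3 rounds 19 were higher (17.6% of all genes) and 2, Mcmbp and Top1, were lower (20.2%). The median difference was 0.49. The 4 with the largest differences were Usp1, which removes ubiquitin from PCNA, Tipin, which steadies the fork, Dna2, a nuclease and helicase, and Dtl, which targets Cdt1 for destruction. Usp1 differed by 0.97, 1.27 and 2.00 in rounds 1 to 3, Tipin by 0.91, 1.26 and 1.93, and Dtl by 1.18, 0.64 and 1.45. Usp1 and Dtl are also in the study's own list, which was chosen on these same samples. Dna2 rested on 1 array, with a value of 8.38 in ipsilateral round 2 and between 4.73 and 5.81 in the other 5.

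Genes that drive entry into S phase (E2F factors, cyclins and their partners) formed another list of 20, of which 18 passed the filter. Of the 20, 17 were higher in all 3 rounds (17.6% of all genes) and 0 were called (0.358% of all genes were called higher). At 2-fold and an unadjusted p under 0.05, 4 were higher (2.47% of all genes). Myb, a transcription factor of dividing progenitors, measured 9.22, 9.25 and 11.06 in the ipsilateral arrays and 8.05, 7.93 and 7.34 in the contralateral arrays (difference 2.07, limma adjusted p 0.234). Ccna2, the cyclin of S phase and G2, measured 9.63, 8.91 and 10.24 against 7.87, 7.21 and 7.72, a difference of 2.00 with a limma adjusted p of 0.131, or 0.058 with the block. Both had no overlap. E2f8, a repressor of the E2F family, measured 6.58, 7.34 and 8.53 against 5.14, 5.91 and 5.76 (difference 1.88, limma adjusted p 0.327). Skp2, which marks inhibitors of the cell cycle for destruction, differed by 1.24 with overlap between the sides. Ccne2, a cyclin of the G1 to S transition, was the one gene of this list with a lower ipsilateral mean, by a difference of -0.16. Myb, Ccna2 and Skp2 are also in the study's own list, which was chosen on these same samples.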

How the data were processed

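Labeled RGCs of 3 rounds were profiled on 6 arrays. The authors made the deposited log2 values per probe set with RMA in Affymetrix Expression Console 1.1, per the labels, and whether all arrays were normalized together is not given in the sources used here. Of 45101 probe sets, 64 controls were left out, and 36029 with a mean at or above the 20th percentile (log2 4.74) were kept. The annotation names 1 gene for 34945 sets, several for 932 and none for 9160, and 34741 of the named sets were found in RefSeq by Entrez identifier.

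A linear model of side, without a block, was fitted in limma 3.58.1 (R 4.3.3) with moderated variances, and p-values were adjusted (Benjamini-Hochberg) over all sets kept. Calls needed 2-fold and an adjusted p under 0.05. Same-numbered arrays came from 1 round, and their deviations from the side means correlated at 0.511, 0.541 and 0.612, against -0.353 to -0.207 for other pairs. The median SE was 0.44 without and 0.17 with the round as a block. Unless the block is named, SEs, intervals and p-values are from the fit without it, which does not use the pairing within rounds. Array medians were 5.80 to 6.70, lowest in round 1 and highest in round 2 on both sides. Precision is limited by there being 3 arrays a side, and pooled litters hide differences between embryos.

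The members and lists were chosen with earlier results of these data known. Genes described singly were the 4 of each group with the largest absolute difference, the Mcm2 to Mcm7 ring, and any with a difference below 0, below the filter or called. The 4 largest of each further list were added, with exceptions said to be such where they appear. Rfc1, Rfc3, Rfc4, Rfc5, Pola1, Mcmbp, Top1, Ccne2, Six3, Pax6 and Hes1 were also named after their values were seen. Alternatives were other filters, normalizations, moderation, the block, the mean of all probe sets and each array left out. Both arrays of a round left out, and the block with unadjusted p, were chosen after seeing the data. Promoters came from RefSeq (GRCm38.p6).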

Additional observations from a re-analysis of the deposited data

How the results depend on the processing

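The count of replication genes called, 0, was also 0 without the filter, with quantile normalization, with arrays centered on their medians, with no fold threshold and with the round as a replicate block. With the filter at the 50th percentile it was 1 (Rrm2), and with trend and robust moderation 3 (Rrm2, Pcna and Mcm3). Leaving out each array in turn gave 0 to 4, with 4 without ipsilateral array 1 (Mcm3, Mcm4, Gins2 and Rrm2), 2 without ipsilateral array 2 (Gmnn and Rrm2) and 1 without contralateral array 2 (Rrm2). At 2-fold and an unadjusted p under 0.05 it was 16, or 17 with the replicate block, a combination chosen after seeing the data. With the block, 24 of the 44 genes were higher at an unadjusted p under 0.05 and any fold, against 16 without it. Over all 15346 genes these counts were 1214 with the block and 420 without it, so the count rose for all genes as well.

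No median difference changed sign. Leaving out arrays or whole rounds moved the median of the 44 genes between 0.41 and 1.06, that of the helicase group between 0.59 and 1.38, of the polymerase group between 0.28 and 1.01 (0.29 to 1.01 over single arrays), of the nucleotide group between 0.42 and 1.07 and of the chromatin group between 0.21 and 0.70. The cause was not tested. With the probe sets of each gene averaged, the median of the 44 was 0.67, and 27 to 30 genes were higher in all 3 rounds over the filters, normalizations and probe set rules tried. Genes with a mean near the filter level, such as Cdc6, have little signal over background.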
